A study of Mus musculus with 2 samples.

Results

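The genes described here are the high-numbered zinc finger genes of the mouse, those whose symbol in the platform annotation is Zfp followed by a number from 600 upwards. The rule found 133 genes, covered by 240 probe sets, among 18194 genes with a probe set listed for 1 gene only. All 133 symbols were also the current ones in the RefSeq table of assembly GRCm38.p6. That table lists 132 of them as protein coding and Zfp783 as a long noncoding RNA. They lie on 19 chromosomes, with 33 on chromosome 7, 20 on chromosome 17 and 14 on chromosome 8.

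RNA came from cultured mouse embryonic stem (ES) cells, the pluripotent cells of the early embryo. 1 array was made from a control culture and 1 from cells titled as a knockout (KO) of Dnmt1, the enzyme that copies DNA methylation to the new strand after replication. The source name of both samples describes a control, so the title alone tells the arrays apart. The sources used here do not give the knockout allele, the number of clones or whether feeder cells were present. The arrays were run as a reference for further experiments on stem cell differentiation.

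Zinc finger proteins of this kind bind DNA through tandem fingers, in each of which a pair of cysteines and a pair of histidines hold a zinc ion. Many carry a KRAB domain near the start of the protein, which recruits the corepressor Trim28 and, through it, the histone methyltransferase Setdb1. In ES cells such proteins silence endogenous retroviruses, and the genes that encode them arose largely by tandem duplication, so that many stand in clusters with close copies next to each other. High-numbered symbols were mostly given to genes with no other name, and the list also holds zinc finger proteins without a KRAB domain.

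With 1 array per group, every value is a single measurement, the spread between cultures is unknown, and no p-value is given. Log2 ratios are KO over control. The median gene was 1.34-fold brighter on the KO array (log2 0.43). This shift has been taken off every ratio that is not called as deposited. A floor was set at the median signal of each array, 60.9 for the control and 74.2 for the KO. A gene below the floor on 1 array has only a bound for its ratio, and a gene below it on both has none. Signals of different probe sets are not comparable as RNA levels, because probes differ in how strongly they bind.

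Dnmt1 checked the titles. Its brightest probe set went from 1949.1 to 262.1, 9.99-fold lower. The other probe sets, at 874.7 and 348.3 in the control, were under the KO floor, which bounds them at 15.8-fold or more and 6.30-fold or more. All 10 ES cell markers listed, Pou5f1, Nanog and Sox2 among them, were above the floor on both arrays, with a summed signal of 29816.1 and 38309.7. Nanog (592.5 to 1965.5, log2 ratio 1.30) and Esrrb (361.8 to 1098.1, 1.18), both factors of the pluripotency network, were over 2-fold higher, and Utf1 was lower (-0.62). Of 15 fibroblast markers, 9 passed the floor of both arrays and 6 passed neither (Col3a1, Dcn, Lum, Pdgfra, Postn and S100a4), with a summed signal over the 15 of 6106.8 in the control and 7546.3 in the KO. Tagln was over 2-fold lower (707.9 to 345.9, -1.46). The 10 ES cell markers had a median log2 ratio of -0.10, with 4 above the shift and 6 below. For the 9 fibroblast markers measured on both arrays it was -0.23, with 3 above and 6 below. The summed signals are as deposited, with the shift left in. The part of these marker differences in the zinc finger values was not tested.

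Most of the zinc finger genes differed little between the arrays, and 2 stood out as higher on the KO array, Zfp991 and Zfp934. Of the 133 genes, 89 passed the floor of both arrays, 9 that of the KO array alone, 4 that of the control array alone and 31 neither. Among the 102 genes above the floor on at least 1 array, 2 were at least 2-fold higher (1.96%), against 1.09% of all genes. Only Zfp637 was at least 2-fold lower (0.980%), against 0.532% of all genes. At 1.5-fold, 6 were higher (5.88%, against 4.74% of all genes) and 6 lower (5.88%, against 4.25%). As deposited, 6 were at least 2-fold higher, against 4.92% of all genes, and none was 2-fold lower, against 0.0982%. Outside chromosome 8 and relative to the shift, 6 of 92 were 1.5-fold higher (6.52%, against 4.98% of all genes there). There 4 were 1.5-fold lower (4.35%, against 3.38%). These shares rest on few genes and lie near those of all genes.

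The median log2 ratio of the 89 genes measured on both arrays was -0.07, with quartiles of -0.31 and 0.15. For all 10995 genes measured on both, the quartiles were -0.19 and 0.19 around a median set to 0 by the centring. Of the 89, 52 lay below the shift and 37 above it. Without chromosome 8, described further on, the median of the remaining 79 was -0.03, with 42 below (53.2%) and 37 above. All 10394 genes measured on both arrays outside chromosome 8 had a median of 0.01, with 47.7% below. As deposited the median of all 89 zinc finger genes was 0.35, on the other side of 0.

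The zinc finger genes were dimmer than most. Their median signals were 164.0 (control) and 193.8 (KO), against 270.0 and 373.9 for all genes measured on both. This was not particular to them. Zinc finger genes with a number below 600 had medians of 173.2 and 241.7, and zinc finger genes with other symbols 164.35 and 223.45. All genes measured on both arrays were divided into 4 equal bins by mean signal. Of the 89 high-numbered zinc finger genes, 40 fell in the dimmest bin, 22 and 23 in the middle bins and 4 in the brightest. In the dimmest bin the interquartile range of the log2 ratio was 0.47 for the zinc finger genes and 0.46 for all genes. In the next bin it was 0.37 and 0.42, and in the one after that 0.40 and 0.37. In the brightest bin it was wider for the zinc finger genes, 0.69 over 4 genes against 0.29. These 4 were Zfp982, Zfp622, Zfp979 and Zfp991, and all of them lay above the shift. The next brightest zinc finger gene was Zfp936 (565.3 to 792.1, log2 ratio 0.06).

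**Figure D1:**
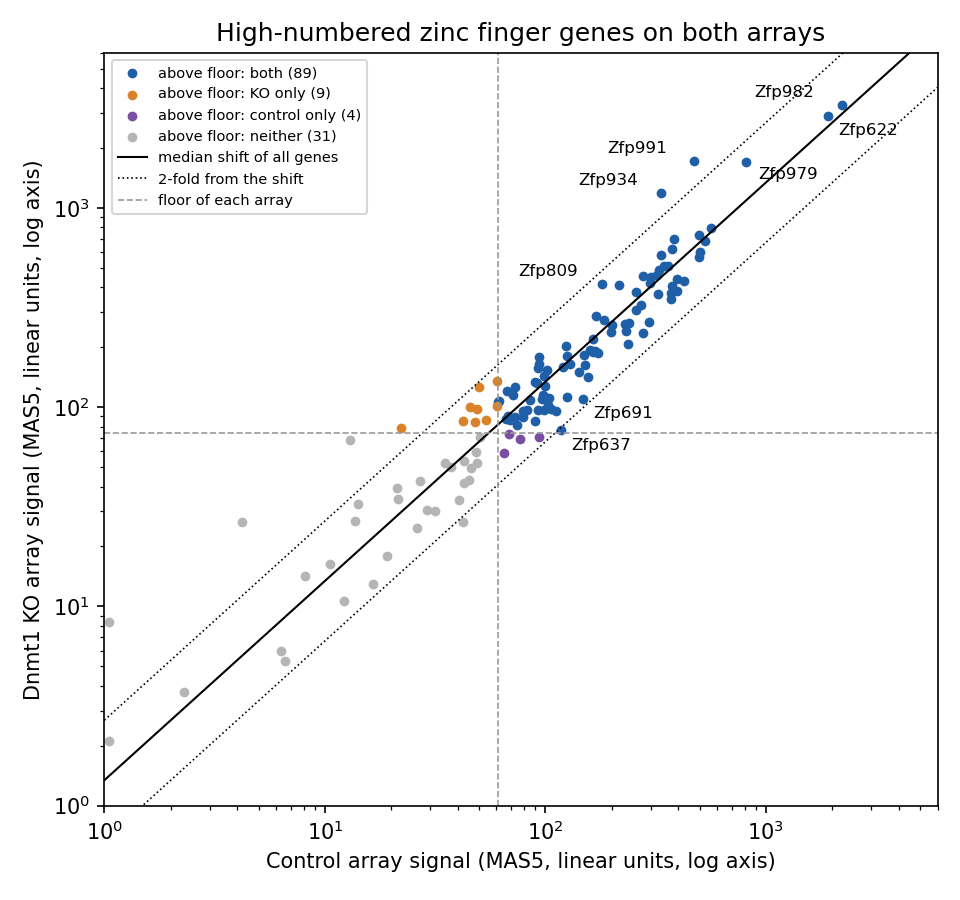
Signal of each of the 133 zinc finger genes on the control array (x axis) and the Dnmt1 KO array (y axis), in linear MAS5 units on log axes, with 1 point per gene from its brightest probe set and signals below 1 drawn at the edge. The solid line is the median shift of all genes, the dotted lines are 2-fold on either side of it and the dashed lines are the floors. Among genes above both floors, Zfp991 and Zfp934 lie above the upper dotted line and Zfp637 just beyond the lower one.

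Zfp991 had the highest ratio of the group. Its brightest probe set went from 474.1 to 1723.6, 2.71-fold higher (log2 ratio 1.44). Another gave 342.6 and 1516.9, or 3.30-fold, so the pair had a mean log2 ratio of 1.58 ± 0.20 (SD over 2 probe sets). Its remaining probe set, at 69.1 and 57.7, was near the floor of the control array and under that of the KO array, a log2 ratio of -0.32 or below. Zfp934 went from 335.9 to 1190.3 on its brightest probe set, 2.64-fold higher, but from 264.8 to 442.8, or 1.25-fold, on its other one (mean log2 ratio 0.86 ± 0.77, SD over 2 probe sets). Next, the brightest probe set was replaced by the mean over a gene's probe sets above the floor on at least 1 array, with bounds counted as ratios. Zfp991 then had a log2 ratio of 0.96, its bound of -0.32 included, and Zfp934 of 0.87. None of the 133 genes was 2-fold higher.

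Next in order came Zfp809, a repressor that recognises murine leukaemia virus type proviruses in ES cells and recruits Trim28 to them. It went from 180.5 to 414.4 (log2 ratio 0.77, 1.71-fold), the nearest to 2-fold among the higher genes under it. Zfp979 went from 808.3 to 1705.2 (0.65). Zfp746, also known as PARIS, a substrate of the ubiquitin ligase parkin, went from 60.1 to 136.1, a log2 ratio of at least 0.73. Zfp677 went from 49.8 to 126.5, at least 0.63. Zfp746 was chosen for mention after its value was seen. The control signal of Zfp746 was only just under the floor, so its bound is close to a ratio.

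At the other end, Zfp637 went from 118.0 to 77.2, 2.05-fold lower (log2 ratio -1.04). Its KO signal was close to the floor of 74.2, and it has 1 probe set. Quantile normalization and lowess each left no gene of the group 2-fold lower. Zfp691 went from 147.4 to 109.4 (-0.86), just short of 2-fold, and Zfp658, chosen after its value was seen, from 93.9 to 71.1 (-0.77 or below). Zfp868 went from 278.3 to 236.0 (-0.66), Zfp937 from 111.8 to 95.9 (-0.65) and Zfp869 from 236.8 to 208.5 (-0.61). As deposited these differences were smaller, from -0.61 for Zfp637 to -0.18 for Zfp869, and all 6 kept their sign. Zfp637, Zfp691, Zfp658 and Zfp937 were dim on both arrays, while Zfp991, Zfp934 and Zfp979 were well above the floor. Next lowest after Zfp869, among genes measured on both arrays, were Zfp956 (125.0 to 112.2, -0.58) and Zfp958 (295.4 to 267.0, -0.57). Zfp868, Zfp869 and Zfp958 lie on chromosome 8, where the other genes had a median of -0.37.

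Several genes with a known role lay close to the shift. Zfp622, a cytoplasmic factor in the maturation of the large ribosomal subunit, went from 1914.4 to 2883.7 (0.17; 0.06 ± 0.14, SD over 3 probe sets). Zfp638, which silences unintegrated retroviral DNA, had 498.8 and 728.4 (0.12). Zfp644, a partner of the G9a histone methyltransferase complex, had 530.5 and 685.5 (-0.06; -0.18 ± 0.14, SD over 4 probe sets). Zfp687, part of a chromatin complex with Zmynd8, had 321.6 and 459.6 (0.09), and Zfp667 had 200.3 and 259.0 (-0.05).

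Others with a known role lay further below it. Zfp932, which binds endogenous retroviruses, went from 393.9 to 441.9 (-0.26). Zfp819, a Trim28-binding protein of pluripotent cells, went from 156.0 to 142.5 (-0.56). Zfp711, an X-linked gene whose human counterpart is mutated in intellectual disability, went from 106.3 to 97.7 (-0.55), and Zfp704 from 89.8 to 85.6 (-0.49). Zfp703, a corepressor known from breast cancer, and Zfp708, a KRAB zinc finger protein, were below the floor on both arrays. The 31 genes in that position had signals from 0.7 to 50.7 (control) and from 2.1 to 71.1 (KO). The arrays give no detection calls, so such genes cannot be called present or absent.

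Of 19 listed partners of KRAB zinc finger proteins, all were above the floor on both arrays and none was 2-fold different. Their median log2 ratio was 0.03. Trim28 went from 6964.9 to 8433.4 (-0.15) and Setdb1 from 596.7 to 998.3 (0.32). At 1.5-fold, 3 were higher (15.8%, against 4.74% of all genes). They were Atf7ip, a cofactor of Setdb1 (0.65), its paralog Atf7ip2 (0.62) and the de novo methyltransferase Dnmt3a (0.67). The list also held Dnmt3b (-0.21) and Uhrf1 (0.09). The share rests on few genes, from a list chosen with earlier results of these data known. Among 172 zinc finger genes with a number below 600, 140 were above the floor on at least 1 array, Zfp229 was 2-fold higher and Zfp1 2-fold lower, and the median of the 131 measured on both was -0.02. Among 64 other zinc finger genes, Zbtb7b was 2-fold higher and Zbtb7a, below the floor on the KO array, at least 2-fold lower, with a median of -0.08 over 54 genes.

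By chromosome, the zinc finger genes of chromosome 8 were lower together, and so were the other genes of that chromosome. All 10 measured on both arrays lay below the shift, from -0.66 (Zfp868) to -0.07 (Zfp612), with a median of -0.39. The other 591 genes of chromosome 8 had a median of -0.37, and 90.2% of them were below the shift. Before the shift was taken off, the median of the 10 was 0.03. The zinc finger genes there thus sat at the level of their chromosome.

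Chromosome 9 went the other way. All 5 zinc finger genes measured on both arrays lay above the shift, from 0.34 to 0.77, while the other 606 genes of chromosome 9 had a median of 0.02 and quartiles of -0.15 and 0.21. Zfp846 went from 92.3 to 156.7, Zfp949 from 61.1 to 106.5, Zfp651 from 93.9 to 164.8, Zfp810 from 67.0 to 120.6 and Zfp809 from 180.5 to 414.4. Zfp653, also on chromosome 9, was above the floor on the control array alone (68.1 and 73.3, -0.30 or below). Apart from Zfp809, these genes were dim on the control array. Only Zfp809 and Zfp810 are neighbours.

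On chromosome 15, Zfp740 (370.1 to 351.1, -0.50), Zfp647 (372.9 to 372.7, -0.43) and Zfp623 (424.2 to 430.9, -0.40) lay below the shift, and Zfp707 and Zfp622 above it, against a median of 0.02 over the other 437 genes. The median on chromosome 7, over 21 zinc finger genes, was -0.10, with 13 below the shift and 8 above. There the range ran from -0.56 (Zfp819) to 0.52 (Zfp865, 93.2 to 179.3). On chromosome 17 the median over 13 was -0.07, from -0.38 (Zfp760) to 0.49 (Zfp995). The other genes of these chromosomes had medians of 0.04 and 0.03. The widest range was on chromosome 4, from -0.86 (Zfp691) to 1.44 (Zfp991), and on chromosome 13 the genes ran from -0.32 (Zfp825) to 1.40 (Zfp934).

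**Figure D2:**
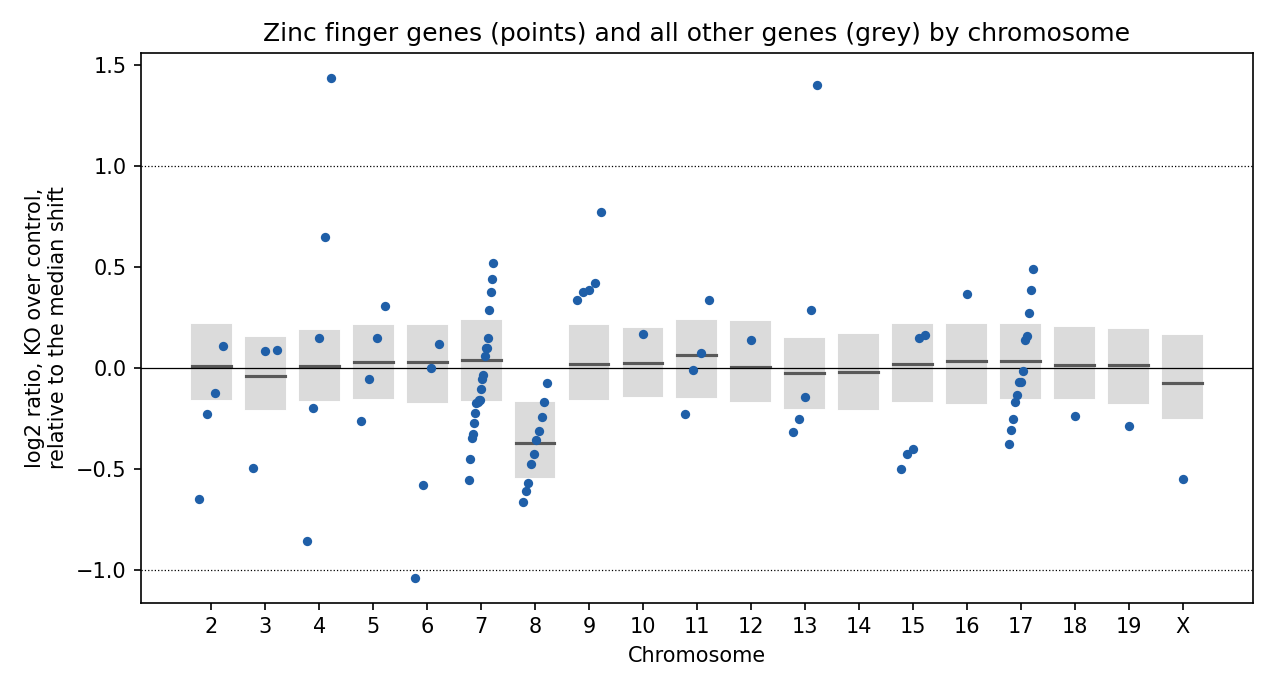
Log2 ratio of KO over control, relative to the median shift, for each zinc finger gene above the floor on both arrays (blue points) by chromosome. Grey boxes span the quartiles of all other genes of the chromosome and the dark bar is their median; dotted lines mark 2-fold. The 10 points of chromosome 8 lie below 0 with the grey box of that chromosome, and the 5 of chromosome 9 lie above their box's median of 0.02.

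Neighbouring genes were compared next. Members were called neighbours when at most 10 other genes of the RefSeq table lay between them. By this rule 81 of the 133 fell into 24 clusters, and 52 stood alone. Of 5 clusters with at least 3 genes measured on both arrays, 2 lay wholly on 1 side of the shift, those of chromosomes 4 and 8. No share over all genes is given for clusters of this size. On chromosome 4 the count depended on Zfp982, at -0.48 without probe sets marked by their identifier as able to bind other transcripts. On chromosome 8, 90.2% of the other genes also lay below the shift. Of 10 clusters with 2 such genes, 5 lay on 1 side, against 54.0% of consecutive pairs of genes of any kind.

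The 26 pairs of consecutive measured neighbours differed by a median of 0.29 on the log2 scale. Pairs of zinc finger genes on different chromosomes (3516 pairs) differed by 0.36. For consecutive genes of any kind the median was 0.27 over 10152 pairs, and for genes of any kind on different chromosomes 0.29. Both neighbours lay on the same side of the shift in 18 of 26 pairs (69.2%), against 50.4% of zinc finger pairs on different chromosomes and 54.0% of consecutive genes of any kind. Without chromosome 8, which gave 5 of the 26 pairs and all 5 on 1 side, it was 13 of 21 (61.9%), with a median difference of 0.29. With chromosome 8 left out there too, zinc finger pairs on different chromosomes gave 49.6% and 0.35. Consecutive genes of any kind then gave 52.3% and 0.27. Pairs share genes and so are not independent. Neighbouring zinc finger genes thus differed less than zinc finger genes on different chromosomes, by medians of 0.29 and 0.36. For genes of any kind these medians were 0.27 and 0.29. Neighbouring zinc finger genes were about as far apart as neighbouring genes in general, though the pairs were not matched for signal.

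**Figure D3:**
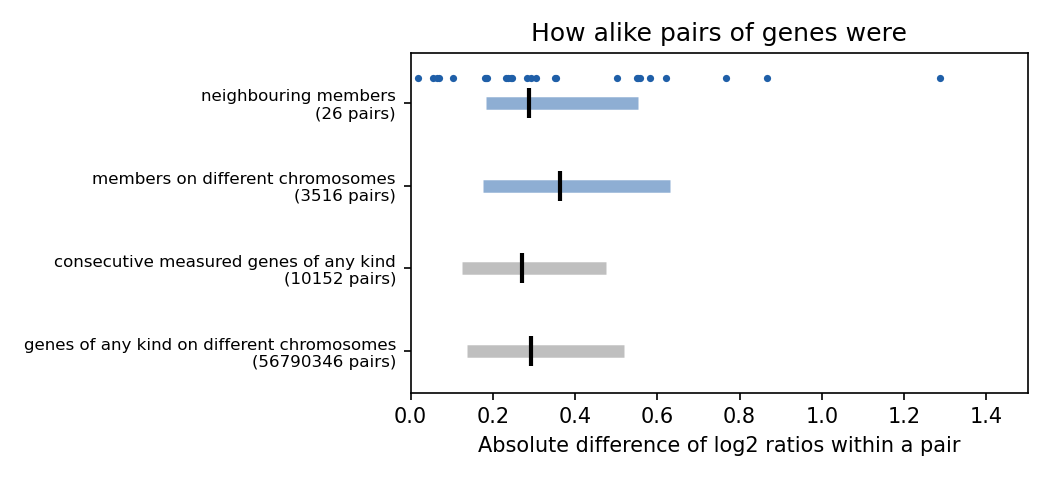
Absolute difference of the log2 ratios within pairs of genes (x axis). Bars span the quartiles and black ticks mark the medians; blue is for zinc finger genes, with the 26 neighbouring pairs as points, and grey for genes of any kind. The medians are 0.29 for neighbouring zinc finger genes, 0.36 for those on different chromosomes, 0.27 for consecutive genes of any kind and 0.29 for genes of any kind on different chromosomes.

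The cluster on chromosome 4 held the gene with the highest ratio. Zfp991 (1.44), Zfp982 (0.15) and Zfp979 (0.65) all lay above the shift, and so did Rex2 (326.2 to 1196.2, 1.45), a zinc finger gene just outside the cluster that was chosen after its value was seen. The 20 measured genes around the cluster, Rex2 among them, had a median of 0.15 and quartiles of -0.07 and 0.38. Zfp982, which has been reported to support the stem cell state in mouse ES cells, had 3 probe sets that disagreed. They went from 2204.4 to 3282.3 (0.15), from 237.0 to 410.9 (0.37) and from 168.0 to 162.1 (-0.48). Leaving out probe sets marked by their identifier as able to bind other transcripts left the last of these alone. Zfp980, which lies before the cluster in gene order and outside it, was below the floor on both arrays (42.8 and 53.7).

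The promoters of this family are shown because some of them are nearly identical. RefSeq's promoter table for GRCm38.p6 held 117 of the 133 genes, and the 250 bases before the first listed start of each are used here. Zfp991 and Zfp934 were not matched. Zfp979 (chr4:147642509-147642758, minus strand), Zfp980 (chr4:145670447-145670696, plus strand), Zfp982 (chr4:147442864-147443113, plus strand) and Rex2 (chr4:147021600-147021849, plus strand) read as follows, 5′ to 3′, with CG dinucleotides, the target of Dnmt1, in capitals.
Zfp979: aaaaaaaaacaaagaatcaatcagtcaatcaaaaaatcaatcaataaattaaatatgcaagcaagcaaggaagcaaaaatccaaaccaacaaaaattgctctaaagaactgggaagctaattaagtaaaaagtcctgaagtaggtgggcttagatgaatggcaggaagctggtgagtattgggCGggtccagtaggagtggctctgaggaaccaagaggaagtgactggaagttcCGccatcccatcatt
Zfp980: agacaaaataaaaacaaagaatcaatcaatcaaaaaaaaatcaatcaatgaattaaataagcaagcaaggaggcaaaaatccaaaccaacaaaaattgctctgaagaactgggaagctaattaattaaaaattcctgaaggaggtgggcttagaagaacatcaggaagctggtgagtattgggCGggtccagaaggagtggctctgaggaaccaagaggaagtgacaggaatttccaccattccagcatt
Rex2: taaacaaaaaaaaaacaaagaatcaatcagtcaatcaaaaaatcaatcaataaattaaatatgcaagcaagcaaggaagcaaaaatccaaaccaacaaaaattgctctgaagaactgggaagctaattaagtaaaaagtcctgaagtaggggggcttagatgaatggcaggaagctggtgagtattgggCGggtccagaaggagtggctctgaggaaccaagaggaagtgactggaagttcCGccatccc
Zfp982: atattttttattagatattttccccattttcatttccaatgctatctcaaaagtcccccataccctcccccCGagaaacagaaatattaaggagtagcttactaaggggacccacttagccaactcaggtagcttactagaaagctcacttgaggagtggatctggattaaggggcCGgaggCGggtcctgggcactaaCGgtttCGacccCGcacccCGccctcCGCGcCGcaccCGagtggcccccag

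Aligned over their length with free end gaps, Zfp979 and Rex2 were identical at 241 of 250 bases (96.4%). Each matched Zfp980 at 226 bases (90.4%), while Zfp982 matched the other 3 at 103 to 109 bases. The median over 6786 pairs of zinc finger promoters was 113 bases (45.2%). Zfp979 and Rex2 hold 2 CG dinucleotides each, Zfp980 holds 1 and Zfp982 holds 11. Near-identical promoters thus stood before genes with log2 ratios of 0.65 and 1.45 and before Zfp980, below the floor on both arrays. Transcripts and probes were not compared, so whether a probe set also binds RNA of another gene of the family was not tested.

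On chromosome 13, Zfp934 stood next to Zfp935, which went from 45.7 to 100.1, a log2 ratio of at least 0.29. The 20 other measured genes around them had a median of -0.03, quartiles of -0.14 and 0.07 and a highest ratio of 0.49. The brightest probe set of Zfp934 (1.40) lay above all of these, while its other probe set (0.32) lay within their range. With only a bound, Zfp935 does not show whether it shared the ratio of Zfp934.

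On chromosome 9, Zfp809 (0.77) and Zfp810 (0.42) were both above the shift. The 20 measured genes around them had a median of 0.0050, with quartiles of -0.08 and 0.12. Zfp809 has the promoter below (chr9:22225453-22225702, plus strand), with 11 CG dinucleotides in capitals, and is shown because Zfp809 is a known repressor of retroviruses.
Zfp809: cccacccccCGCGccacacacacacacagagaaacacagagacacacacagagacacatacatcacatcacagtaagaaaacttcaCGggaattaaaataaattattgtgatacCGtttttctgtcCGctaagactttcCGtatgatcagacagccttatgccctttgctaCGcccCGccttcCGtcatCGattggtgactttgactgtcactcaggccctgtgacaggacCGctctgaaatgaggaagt

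The 5 zinc finger genes of the chromosome 8 cluster, Zfp930, Zfp868, Zfp869, Zfp963 and Zfp866, had log2 ratios from -0.66 to -0.24 and a median of -0.43. Zfp930 went from 374.0 to 405.0 (-0.31), Zfp963 was 102.6 on both arrays (-0.43) and Zfp866 went from 230.4 to 261.9 (-0.24). The 20 measured genes around the cluster had a median of -0.42. Zfp868 and Zfp869 were among the most alike neighbours, with a difference of 0.05. In the second group on this chromosome, Zfp617 (395.6 to 382.7) and Zfp961 (502.2 to 600.5) had -0.47 and -0.17. The 20 measured genes around them had a median of -0.32.

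The largest cluster, on chromosome 17 from Zfp677 to Zfp945, held 13 of the genes, of which 8 were measured on both arrays. Of these 7 lay below the shift and Zfp995 above it. Zfp948 (172.8 to 187.6) had -0.31, Zfp760 (232.8 to 241.0) -0.38, Zfp820 (149.3 to 183.0) -0.13 and Zfp946 (96.9 to 109.4) -0.25. Zfp942 (99.5 to 127.5), Zfp944 (84.9 to 108.7) and Zfp945 (119.6 to 159.0) lay at -0.07, -0.07 and -0.01.

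Zfp995 went from 216.6 to 408.6 (0.49; 0.62 ± 0.18, SD over 2 probe sets). It stands between Zfp820 and Zfp942, so neighbours differed by 0.62 and 0.56 there. The low-numbered Zfp229, also inside this cluster and chosen after its value was seen, went from 147.4 to 514.9 (1.38). Zfp677 and Zfp758 were above the floor on the KO array alone. Zfp677, at 49.8 and 126.5, had a log2 ratio of at least 0.63, the highest value among the 13, and Zfp758, at 47.7 and 84.7, of at least 0.05. Zfp983, Zfp943 and Zfp994 were below it on both. The median of the 8 was -0.10, that of the 5 other measured genes inside the cluster 0.01 and that of the 20 around it 0.10. Over the whole chromosome, the median of the 13 measured zinc finger genes was 0.02 under quantile normalization and under lowess. With the floor at the 25th or the 75th percentile, which changes the genes counted, it was 0.08 and 0.13.

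Zfp942 and Zfp944, both at -0.07, are shown because their promoters were alike at 224 of 250 bases (89.6%). The most alike pair of zinc finger promoters was that of Zfp758 and Zfp943, of the same cluster, at 242 bases (96.8%). Zfp758 was above the floor on the KO array alone and Zfp943 on neither, so their ratios cannot be compared. Zfp942 lies at chr17:21962465-21962714 and Zfp944 at chr17:22361401-22361650, both on the minus strand. Each holds 17 CG dinucleotides, in capitals below.
Zfp942: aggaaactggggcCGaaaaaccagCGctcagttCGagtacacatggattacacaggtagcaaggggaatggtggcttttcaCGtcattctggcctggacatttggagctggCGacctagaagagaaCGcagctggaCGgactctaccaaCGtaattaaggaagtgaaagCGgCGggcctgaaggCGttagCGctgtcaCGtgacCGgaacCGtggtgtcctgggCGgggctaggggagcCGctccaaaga
Zfp944: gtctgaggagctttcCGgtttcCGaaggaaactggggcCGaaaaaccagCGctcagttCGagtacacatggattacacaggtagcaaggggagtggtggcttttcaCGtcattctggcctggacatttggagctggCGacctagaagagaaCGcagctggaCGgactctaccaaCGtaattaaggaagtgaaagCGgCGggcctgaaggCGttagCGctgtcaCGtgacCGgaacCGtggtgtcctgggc

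The probe sets of Zfp942 and Zfp944 were dim, and whether each also binds RNA of the other gene was not tested. In the second cluster of chromosome 17, Zfp871 (299.8 to 448.8) had 0.16, though its 3 probe sets averaged -0.09 ± 0.26 (SD). Zfp799 (256.9 to 379.9) had 0.14, Zfp952 (61.3 to 107.6) 0.39 and Zfp763 (257.6 to 308.2) -0.17. Zfp811 (42.2 to 85.0) and Zfp870 (53.8 to 85.8) were above the floor on the KO array alone, at least 0.06 and at least 0.07. On chromosome 7, Zfp771 (382.1 to 696.4, 0.44) lay above the shift and Zfp764 (103.3 to 110.7, -0.33) and Zfp689 (66.6 to 87.4, -0.03) below it. The values of Zfp771 and Zfp764 come from probe sets marked as able to bind other transcripts. Without such probe sets Zfp771 had 0.23.

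**Figure D4:**
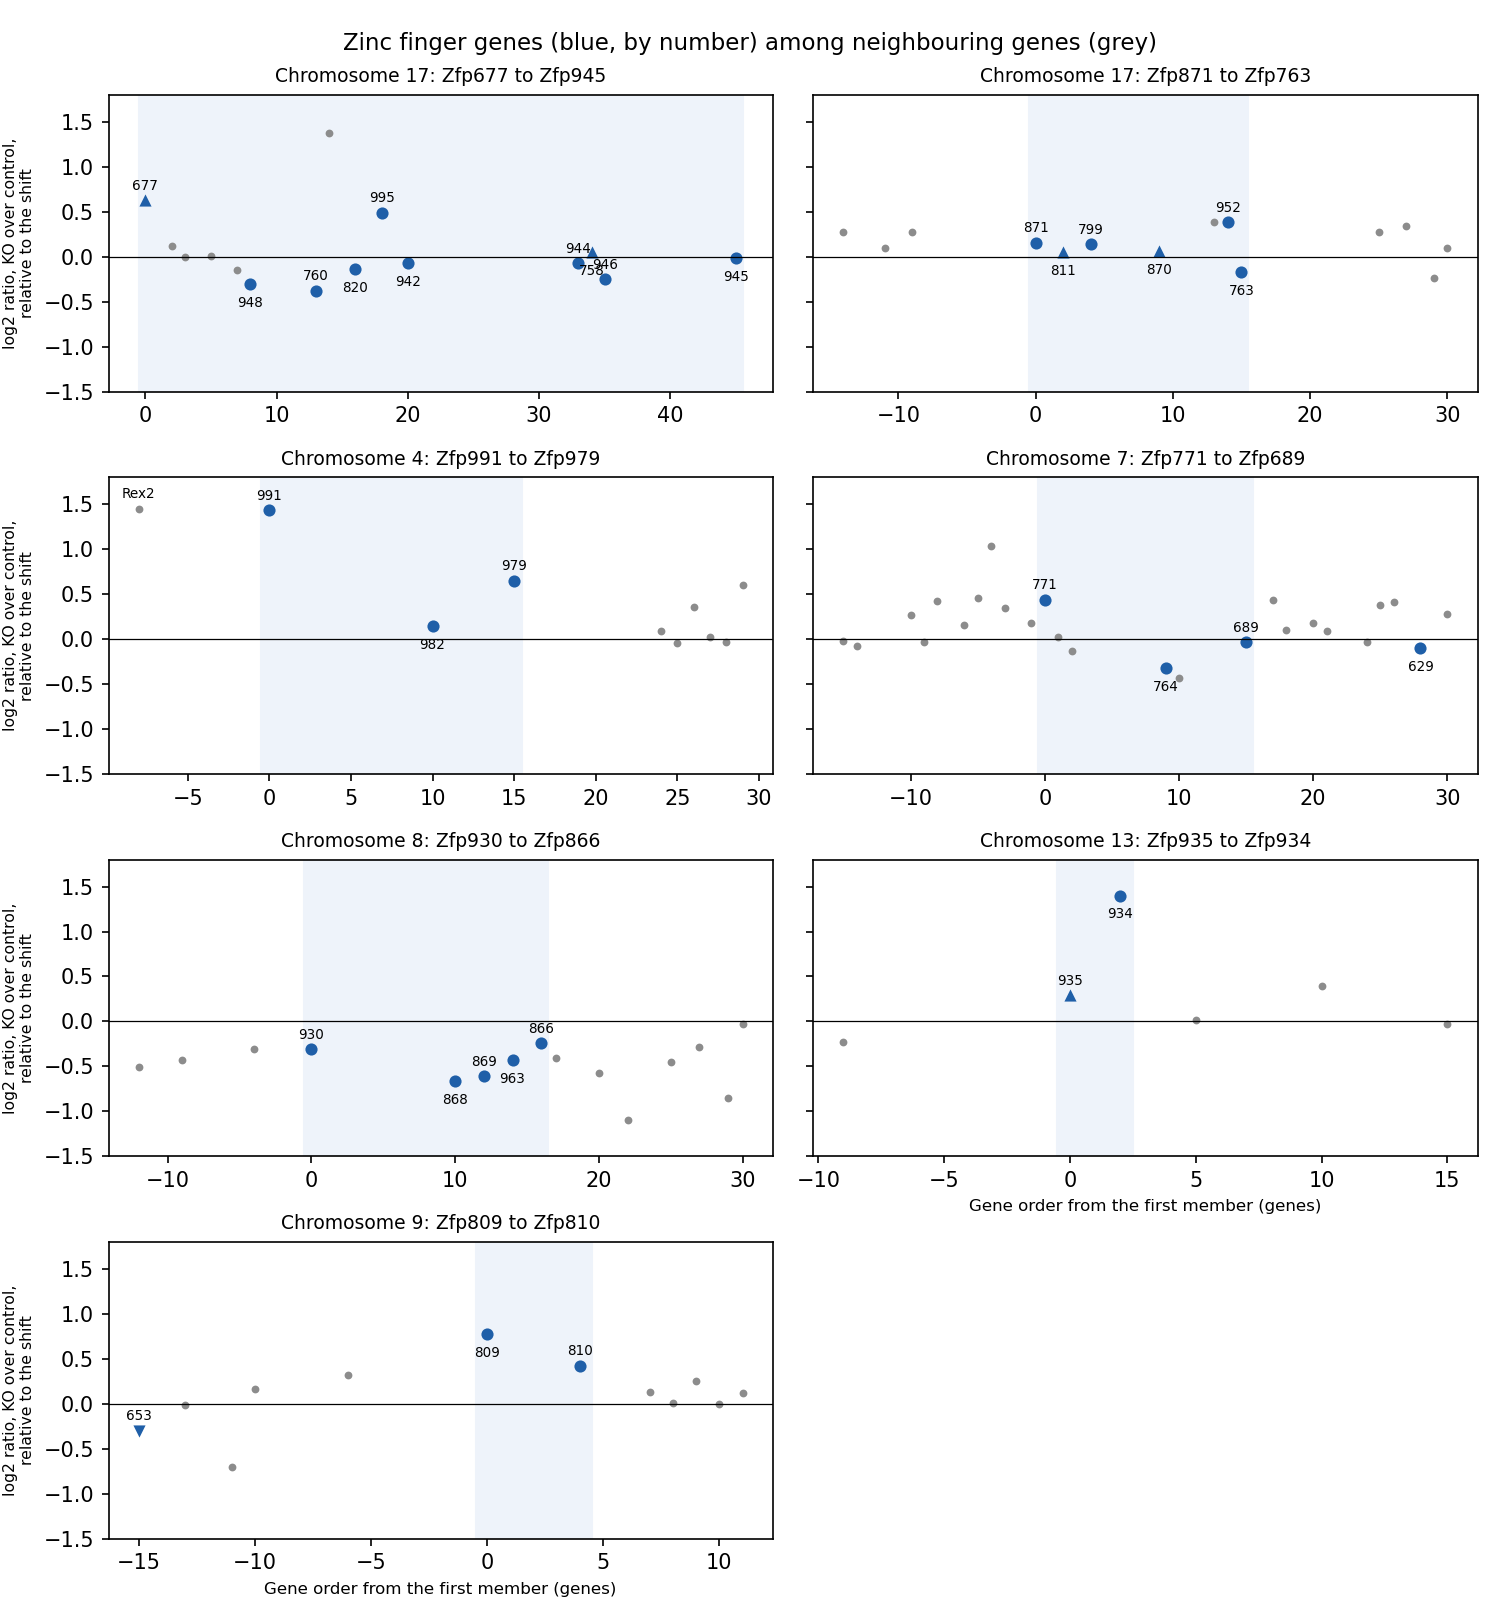
Log2 ratio of KO over control, relative to the shift, in gene order for the 5 clusters with at least 3 genes measured on both arrays and for the pairs of Zfp934 and Zfp809. The x axis counts genes of the RefSeq table from the first member, the shaded band is the cluster, blue marks are the zinc finger genes by number (circles for ratios, upward triangles for lower bounds, downward triangles for upper bounds) and grey points are other genes within 15 places that were measured on both. The chromosome 8 genes lie below 0 with the grey points around them, while Zfp991 at 1.44 and Zfp934 at 1.40 lie above most of theirs.

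CG dinucleotides in the promoter, the kind of site at which Dnmt1 copies methylation, were counted for the 117 matched genes. Methylation was not measured, so the counts do not tell which of these sites were methylated. The median was 10 (quartiles 6 and 17, range 1 to 48), against 13 (quartiles 5 and 21) for the 14368 genes of the array with a listed promoter. Among zinc finger genes measured on both arrays, the 35 with fewer than 10 CG dinucleotides had a median log2 ratio of -0.03, and the 41 with 10 or more had -0.12. Over all genes the medians were -0.03 and 0.01. Across the 76 genes the count and the ratio had a Pearson correlation of -0.08 and a Spearman correlation of -0.10, a description across genes that share clusters, sequence and 1 pair of arrays. Zfp991 and Zfp934, the only genes at least 2-fold higher, had no listed promoter, so the highest ratio among the 76 was 0.77. Zfp637, the one gene 2-fold lower, has 19 CG dinucleotides in its promoter (chr6:117840931-117841180, plus strand), in capitals here.
Zfp637: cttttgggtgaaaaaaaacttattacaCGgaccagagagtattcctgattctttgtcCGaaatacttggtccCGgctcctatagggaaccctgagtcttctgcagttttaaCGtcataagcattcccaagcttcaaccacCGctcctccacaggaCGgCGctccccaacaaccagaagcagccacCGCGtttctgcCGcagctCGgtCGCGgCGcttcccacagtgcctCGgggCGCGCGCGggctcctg

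**Figure D5:**
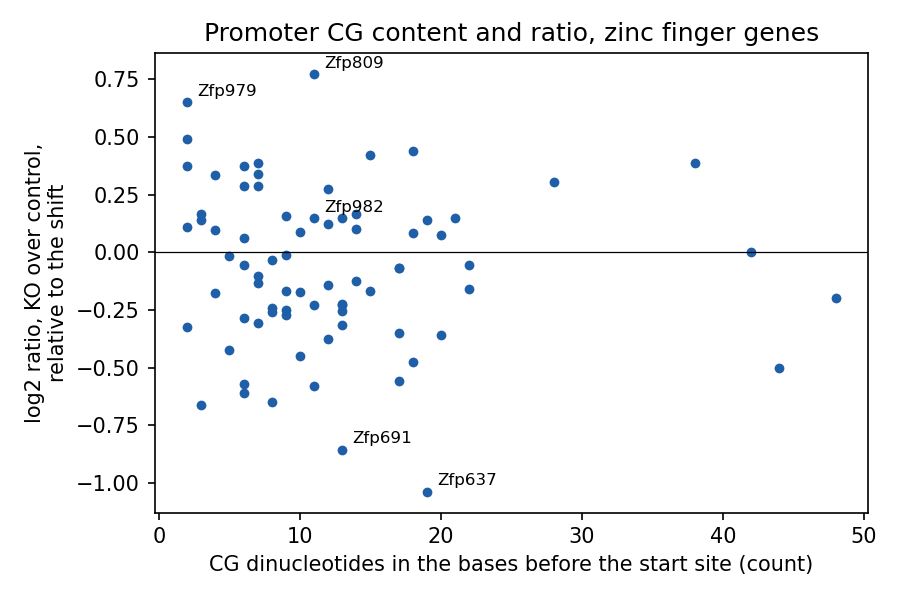
Number of CG dinucleotides in the 250 bases before the first listed start (x axis) and log2 ratio of KO over control relative to the shift (y axis) for 76 zinc finger genes with a listed promoter and signals above the floor on both arrays, 1 point per gene. The points show no clear slope, with a Spearman correlation of -0.10.

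Short motifs were searched in the same promoters on both strands. The E-box CACGTG was in 11 of 117 (9.40%), against 6.05% of 27025 promoters of all genes. Of the 11, 8 lie on chromosome 17, among them the alike pairs Zfp942 and Zfp944, and Zfp758 and Zfp943. Alike promoters are not independent matches. The letters TCCCGC, the core of E2F6-type sites, were in 21 (17.9%), against 16.9%. The palindromic NRF1 motif was in 4 (3.42%), against 0.781%, in the promoters of Zfp639, Zfp653, Zfp658 and Zfp719. Measured genes with the E-box had a median log2 ratio of -0.10 (6 genes) and those with TCCCGC -0.17 (12 genes). The genes without them had medians of -0.06 in both cases. A match is a description of letters and not a binding site.

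Agreement between probe sets was close to that of other genes. Of the 133 genes, 69 had 1 probe set. In 26, at least 2 probe sets were above the floor on both arrays, and the pooled SD between probe sets of a gene was 0.22, against 0.24 over 4704 such genes of all kinds. In 8 of the 26 the probe sets differed in sign (30.8%, against 43.3%). Of the 240 probe sets, 21 carry an identifier that marks possible binding to other transcripts. Such a probe set stood for 12 of the genes above the floor on at least 1 array.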

How the data were processed

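The deposited intensity values are linear signals from MAS5, per the submitters' processing notes. The sources used here do not give the target intensity, the scaling or calls of detection. The table held 45101 probe sets, of which 64 Affymetrix controls were left out and 34945 others were listed with 1 gene. The columns had different medians (60.9 and 74.2), so log2 ratios were centred on their median over genes measured on both. The brightest single-gene probe set, by mean floored log2 signal, stood for a gene. Gene order came from the RefSeq table of GRCm38.p6. Coordinates are those of the RefSeq promoter table.

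The members and lists were chosen with earlier results of these data known. Named were the genes 2-fold apart, the 10 highest and 10 lowest ratios, the 5 brightest genes, extremes of chromosomes with at least 5 measured genes, genes of clusters with at least 3 measured, and genes of known role. Zfp617, Zfp623, Zfp638, Zfp644, Zfp647, Zfp653, Zfp707, Zfp935, Zfp949, Zfp961, Zfp980 and the genes marked in the text were added after their values were seen. Alternatives were other scalings, floors, thresholds, probe set choices and neighbour distances. The number of arrays limits the precision. The code was tested on simulated data (Python 3.11.15, pandas 2.3.3, Biopython 1.88). Promoters were aligned globally with free end gaps.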

Additional observations from a re-analysis of the deposited data

How the results depend on the processing

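The counts moved most with the scaling and the fold. As deposited, 6 genes were at least 2-fold higher and 0 lower, the median over all measured zinc finger genes was 0.35, those of chromosomes 7, 8 and 17 were 0.32, 0.034 and 0.36, and Dnmt1 had -2.89. The number at least 2-fold lower was 0 under quantile normalization, under lowess and with the floor raised to the 75th percentile, and 2 with it lowered to the 25th. With the mean over probe sets, 0 genes were 2-fold higher. A 1.5-fold threshold gave 6 higher and 6 lower, and a 3-fold threshold 0 of each. With the floor at the 75th percentile, which left 40 genes above it on at least 1 array, the median of chromosome 7 was 0.20. The median difference between neighbours stayed between 0.25 and 0.35, with protein-coding genes alone counted as lying between (0.27, an alternative chosen after seeing the data) among the settings. All of the 49 named genes with a value moved by the shift of 0.43 as deposited. Under quantile normalization and lowess each stayed within 0.24, the pooled SD between probe sets. Without probe sets marked as able to bind other transcripts, Zfp982 moved to -0.48. No paired analysis was possible because each group has 1 array.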

Other observations

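Another 19 probe sets were listed with several genes of which at least 1 met the naming rule, and no gene was named from them. Of these, 9 were above the floor on both arrays, with log2 ratios relative to the shift from -0.10 to 0.55 and a median of 0.11, 7 of them above the shift. On the KO array alone 1 was above the floor, on the control array alone 1, and 8 were on neither. None was 2-fold different.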
